A study of Mus musculus with 12 samples.

Results

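In a microarray study of spleen from mice that express mutant human TREX1, 4 oligonucleotide probes were chosen because their spleen signal, relative to a reference RNA, was lower in both mutant groups than in control: M300001033, M400003274, M200006448 and M200016459. The choice also required that a probe's translated sequence match neither TREX1 nor a core histone, a step that was not repeated here. These 4 were among 35852 mouse probes on each array, of which 26502 were bright enough to be tested, all 4 included. In the fit used here 9 probes (0.034% of those tested) were called lower in both mutant groups, and the other 5 are not described. Because the members were chosen from the differences between the mutants and control, those differences are given as a description, without a test. Ranked by the weaker of the 2 comparisons, the last of the 9 was M200016459, at −0.74 in V235fs and −0.70 in D272fs on the log2 scale. The first probe outside, M400007082, stood at −1.03 and −0.77.

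TREX1 is an exonuclease that degrades DNA in the cytosol, and its C-terminal tail anchors it to the endoplasmic reticulum. Loss of the enzyme lets DNA accumulate and engage the cGAS and STING sensors, which drive type I interferon. Frameshifts that remove the tail leave the catalytic part but release it from its anchor, and are known from retinal vasculopathy with cerebral leukodystrophy (RVCL) and from lupus. The spleen holds mostly B and T cells in its white pulp, and macrophages, neutrophils and erythroid cells in its red pulp.

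All 12 samples were spleen RNA of C57BL6 mice, 1 sample per array. The V235fs group (n = 4) had a knock-in of human TREX1 with the RVCL frameshift V235fs, and the D272fs group (n = 4) one with the C-terminal frameshift D272fs seen in a lupus case. Expression of both alleles was conditional. The labels call the third group (n = 4) control and do not say whether it carried a silent allele, nor do they give age, sex or the Cre used. They do not state that the 4 samples of a group were different animals, so p-values measure the spread between samples, which may be technical. On every array Cy3 carried the spleen cDNA and Cy5 the universal reference, with no dye swap. The V235fs arrays lay on 1 slide, the D272fs arrays on another and the control arrays on 3 more. The mutant arrays shared 1 scan day and the controls had 2 others, so genotype cannot be told apart from scan day. Between 69.2% and 74.9% of mouse spots were well above background in Cy3. D272fs replicate 3 correlated less with its group (mean 0.865 over tested probes) than the other 11 arrays did with theirs (0.928 to 0.974). Spleen cell markers were not analysed here, because the files give each probe's own ID as its gene name and mark every position as unmapped. In bulk spleen, fewer cells of a type and less RNA per cell cannot be told apart.

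The sequence is what the files hold on the identity of each probe. The members are shown 5′ to 3′ as deposited, the same in all 12 files. Capitals mark the longest stretch free of stop codons on the printed strand, because it shows what that strand could encode.

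M300001033: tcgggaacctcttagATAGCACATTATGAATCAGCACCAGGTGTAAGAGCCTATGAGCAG
M400003274: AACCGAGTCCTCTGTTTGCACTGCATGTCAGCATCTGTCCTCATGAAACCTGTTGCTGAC
M200006448: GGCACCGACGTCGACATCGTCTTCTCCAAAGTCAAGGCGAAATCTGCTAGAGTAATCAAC
M200016459: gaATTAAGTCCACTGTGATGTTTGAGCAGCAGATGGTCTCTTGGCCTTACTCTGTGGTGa

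M400003274 and M200006448 could be read without a stop from the first base to the last, as 20 codons each. M200016459 was open in the third frame, for 19 codons, and closed in the other two. M300001033 had at least 1 stop codon in each of the 3 frames as printed, and its longest open stretch on that strand was 15 codons. On the complementary strand each member had at least 1 stop-free frame. A stop-free frame says little by itself: 89.9% of the 34815 mouse probes of 60 bases had at least 1 in the printed direction. The remaining 10.1%, like M300001033, had none.

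The members were of ordinary base composition. Their GC content was 46.7% in M300001033 and M200016459 and 50% in the other two, against a median of 48.3% over mouse probes of this length. M200006448 held 5 CpG dinucleotides, and 2.45% of those probes held as many or more, while M200016459 held 0 and the other members 1 each. None contained the polyadenylation signal AATAAA or its variant ATTAAA on the printed strand, which 3.1% of the probes did. No pair of members shared more than 7 consecutive bases on either strand. No RefSeq promoter (32851 windows of build GRCm38.p6) shared a run of 30 bases with a member on either strand, and the longest shared run was 17 bases. A run of 20 bases in the RefSeq miRNA table was not found on the printed strand either, and the opposite strand was not validly searched there. These letters are therefore not in those windows, which hold only 250 bases before and 50 after each gene's start.

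M400003274 had a close relative on the array. Without gaps, 50 of 58 aligned bases (86.2%) were the same as in the probe M400007705, whereas the next probe shared 33 of 60. For the other 3 members the most alike probe shared 32 bases. The pair is shown with the bases they share in capitals.

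M400003274: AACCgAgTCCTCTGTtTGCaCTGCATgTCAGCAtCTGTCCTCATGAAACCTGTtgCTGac
M400007705: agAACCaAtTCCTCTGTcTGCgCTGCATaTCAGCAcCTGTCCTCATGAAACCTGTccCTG

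Near-identical stretches of this kind are known from gene families, whose transcripts can bind each other's probes. The signal of M400003274 may therefore not belong to 1 transcript alone. Whether the related transcript bound it was not tested.

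M300001033 was bright in control spleen and at background in both mutants. Its Cy3 mean signal was 332, 329, 669 and 372 in control replicates 1 to 4. In V235fs it was 52.6, 51.3, 53.6 and 48.5, and in D272fs 54.3, 57.7, 76.1 and 57.5. All 8 mutant arrays thus lay below all 4 control arrays, and control replicate 3, the brightest, was also the array with the highest Cy3 median over all mouse probes, 220 against 94.3 to 138 on the other 11. The local background of the spot was between 19 and 32 on all 12 arrays. Feature Extraction called the Cy3 signal well above background on 4 of 4 control arrays, 0 of 4 V235fs arrays and 1 of 4 D272fs arrays, which was replicate 3. That pattern, bright on all control arrays, on no V235fs array and on at most 1 D272fs array, was found for 23 of 35852 mouse probes (0.0642%). The opposite pattern, on no control array, all V235fs arrays and at least 3 D272fs arrays, was found for 6 (0.0167%). Both patterns follow the flags of M300001033 itself, which was chosen for lower mutant ratios, so these counts are a description only.

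After background correction and loess normalisation, the log2 ratio of spleen over reference for M300001033 was 2.52 ± 0.25 in control, 0.13 ± 0.05 in V235fs and 0.13 ± 0.08 in D272fs (SD, n = 4 each). The ratio differed from control by −2.39 (SE 0.11) in both groups. With no V235fs array measuring the probe above background, the size of its fall there was not measured. Each V235fs array was held at the higher of its own value and the dimmest probe measured on it. So held, the control level was 5.44-fold higher in normalised Cy3. That value depends on the processing and is not a lower bound across settings. For the V235fs ratio, scale normalisation gave a log2 difference of −1.95 and an offset of 0 gave −3.17. In D272fs 1 of 4 arrays, replicate 3, measured the probe, so the size of the fall is not well measured there either. That array had the highest Cy3 mean signal of the mutant arrays, 76.1, yet the lowest D272fs log2 ratio after normalisation, 0.05. The small SD of the mutant ratios is thus that of signals near background. On the scale of Agilent's processed signals the same spots stood at 829 ± 113 in control, 14.1 ± 6.5 in V235fs and 36.2 ± 35.3 in D272fs (SD, n = 4 each). The wide D272fs spread is replicate 3, at 88.6 against 11.3 to 24.1 on the other 3 arrays.

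The reference channel of M300001033 was dim everywhere. Its Cy5 mean signal was between 67.7 and 74.8 on control arrays and between 41.1 and 50.6 on mutant arrays, and these ranges did not overlap. It was well above background on 3 of 4 control arrays and on none of the 8 mutant arrays, although Cy5 held the same kind of reference RNA throughout. The arrays with the higher Cy5 signal were also those with the higher Cy3 signal. After normalisation the Cy5 groups overlapped, with log2 differences from control of −0.07 (SE 0.11) in V235fs and −0.06 (SE 0.11) in D272fs. The whole fall of the ratio lay in Cy3, where the log2 difference from control was −2.46 (SE 0.09) in both mutant groups.

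With Agilent's processed log ratios the V235fs difference of M300001033 was −3.70 (SE 0.59) and the D272fs difference −2.59 (SE 0.59), and the probe was no longer called in both. On D272fs replicate 3 that ratio was 4.04, close to the 4.13 to 4.94 of the control arrays, with a processed Cy5 signal of 5.4.

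M400003274 had nearly the same profile. Its Cy3 mean signal was 362, 342, 642 and 343 in control replicates 1 to 4, against 60.1, 71.3, 68.7 and 68.9 in V235fs and 72.2, 73, 79.4 and 76.9 in D272fs. The 4 control arrays again lay far above the 8 mutant arrays. Unlike M300001033, it remained measurable in the mutants: Cy3 was well above background on 4 of 4 control, 3 of 4 V235fs and 4 of 4 D272fs arrays. Its log2 ratio was 2.22 ± 0.37 in control, 0.05 ± 0.12 in V235fs and 0.14 ± 0.12 in D272fs (SD, n = 4 each). The differences from control were −2.17 (SE 0.15), a 4.49-fold lower ratio, and −2.08 (SE 0.15), 4.24-fold lower.

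The reference signal of M400003274 was well above background on all 12 arrays. Its Cy5 mean signal was 92 ± 4.24 in control, 78.8 ± 4.29 in V235fs and 78 ± 1.61 in D272fs (SD, n = 4 each). After normalisation the Cy5 values of control and mutant arrays overlapped, and Cy3 held 96% of the V235fs difference and 98.9% of that in D272fs. In Agilent's processed log ratios the V235fs difference was larger, at −3.52 (SE 0.22).

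The related probe M400007705, which was looked at only because of its sequence and after the members' values were known, was much brighter in Cy3. Its signal was between 3570 and 8430 on control arrays and between 1390 and 2650 on mutant arrays, so the raw ranges did not overlap. Its log2 ratio was 4.64 ± 0.26 in control, 4.14 ± 0.24 in V235fs and 3.7 ± 0.99 in D272fs (SD, n = 4 each). D272fs replicate 3 was the low array, at 2.25. Neither difference from control passed the test, at −0.50 (SE 0.38, limma adjusted p = 0.514) in V235fs and −0.94 (SE 0.38, limma adjusted p = 0.252) in D272fs. Without D272fs replicate 3 the latter was −0.45 (SE 0.17, limma adjusted p = 0.184). In Cy3 alone the V235fs difference was −1.08 (SE 0.32, limma adjusted p = 0.0488), and in Cy5 alone it was −0.58 (SE 0.17, limma adjusted p = 0.0275), so both channels fell there. In D272fs neither channel passed, with −1.34 (SE 0.32, limma adjusted p = 0.0992) in Cy3 and −0.41 (SE 0.17, limma adjusted p = 0.19) in Cy5. Over all tested probes, Cy5 alone called 651 lower in both mutants and Cy3 alone 16. The ratio of this probe depended on the processing. Array weights called it lower in both mutants, at −0.58 (SE 0.17, limma adjusted p = 0.0263) and −0.66 (SE 0.19, limma adjusted p = 0.0413). That setting called 1285 of 26502 tested probes lower in both mutants, against 9 in the fit used here. A call under it therefore says little about this probe. Scale normalisation gave −0.03 (SE 1.71) and, with the sign turned, 1.89 (SE 1.71). In Agilent's processed log ratios its differences from control were only −0.01 (SE 0.17) and −0.17 (SE 0.17).

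M200006448 was lower by about 1 log2 unit in both mutants and well measured in all groups. In control replicates 1 to 4 its Cy3 mean signal was 258, 273, 518 and 348. It was 90.6, 122, 102 and 158 in V235fs, and 114, 129, 125 and 145 in D272fs. The lowest control array was above the highest mutant array, V235fs replicate 4, by a smaller margin than for M300001033 and M400003274. Cy3 and Cy5 were well above background on all 12 arrays. The log2 ratio was 1.06 ± 0.14 in control, −0.11 ± 0.30 in V235fs and 0.10 ± 0.13 in D272fs (SD, n = 4 each). The V235fs arrays spread from −0.38 on replicate 1 to 0.27 on replicate 4.

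Relative to control M200006448 stood at −1.17 (SE 0.14) in V235fs, a 2.25-fold lower ratio, and at −0.96 (SE 0.14) in D272fs, 1.95-fold lower. Most of this lay in the spleen channel, with Cy3 differences of −1 (SE 0.13) and −0.99 (SE 0.13). The Cy5 mean signal was 191 ± 28.4 in control, 198 ± 4.85 in V235fs and 180 ± 4.06 in D272fs (SD, n = 4 each). Among all tested probes, 377 fell at least as far in Cy3 in V235fs (1.42%) and 135 in D272fs (0.509%). The call of this probe in both mutants was kept in 3 of the 12 fits that left out 1 array, those without V235fs replicate 1, V235fs replicate 4 or D272fs replicate 3. Its difference stayed between −1.29 and −0.90 in all 12.

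M200016459 differed from the other members in the channel that carried the fall. Its spleen signal overlapped between the groups, and its reference signal did not. Its Cy3 mean signal was 410, 379, 946 and 296 in control replicates 1 to 4, 333, 337, 270 and 301 in V235fs, and 328, 298, 271 and 341 in D272fs. Of the control arrays 3 were brighter than every mutant array, and replicate 4 lay within the mutant range. The Cy5 mean signal, in contrast, was 386, 592, 661 and 212 in control, between 680 and 722 in V235fs and between 668 and 722 in D272fs. Every mutant array was brighter in Cy5 than every control array, though the closest stood at 668 and 661. The mutant arrays hardly varied among themselves.

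In normalised values, the Cy3 level of M200016459 was 9 ± 0.28 in control, 8.98 ± 0.21 in V235fs and 8.91 ± 0.07 in D272fs (log2, SD, n = 4 each). The groups overlapped, with differences from control of −0.02 (SE 0.14) and −0.09 (SE 0.14). The Cy5 level was 8.50 ± 0.25, 9.22 ± 0.03 and 9.11 ± 0.06, without overlap between control and either mutant group. The log2 ratio was therefore 0.50 ± 0.16 in control, −0.24 ± 0.20 in V235fs and −0.20 ± 0.07 in D272fs. Cy5 held 97.9% of the ratio's V235fs difference of −0.74 (SE 0.11) and 87.4% of its D272fs difference of −0.70 (SE 0.11).

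A Cy5 shift of that size was uncommon but not rare. In V235fs 392 of the 26502 tested probes (1.48%) differed from control in Cy5 by at least as much as M200016459 in either direction, and in D272fs 227 (0.857%). The median Cy5 difference over all tested probes was 0.04 and 0.03. Cy5 carried reference RNA on every array, and slide and scan day differed between control and mutant arrays, so these and the groups cannot be told apart here. With the Cy3 channel alone M200016459 was not called lower in both mutants, whereas the other 3 members were. Of the 12 fits without 1 array, 2 still called it in both, those without V235fs replicate 1 or D272fs replicate 3, and its difference stayed between −0.81 and −0.66 in all 12. Median centring in place of loess gave its D272fs ratio a difference of −1.08 (SE 0.20).

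The control arrays themselves came from 2 scan days, with replicates 1 and 4 on one and 2 and 3 on the other. For M300001033 the mean ratio was 2.35 on the first of these days and 2.70 on the second. For M400003274 the means were 2 and 2.44, for M200006448 1.01 and 1.11, and for M200016459 0.55 and 0.44. The mutant mean ratio of every member lay below both control days. In normalised Cy5, the channel that held its difference, M200016459 had control means of 8.35 and 8.65 on these days. The other members were lower in Cy5 on the second of them. No control array shared the day of the mutant arrays, so a comparison within a day could not be made.

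The profiles were set against each other as deviations from the control mean over the 12 arrays. Such deviations consist largely of the fall that chose the members, so the distances are a description and support nothing further. Among the 26447 other probes with a value on all 12 arrays, M300001033 and M400003274 were each other's nearest, at a root mean square distance of 0.25 log2 units. Few probes could be near them, since only 2 probes had a ratio fall as large as that of M300001033 and 3 one as large as that of M400003274, themselves included. The next nearest probe lay at 0.77 from the former and 0.72 from the latter, and the median distance was 1.96 and 1.75. M200006448 lay nearest to M300011838, at 0.26, with the next nearest probe at 0.29 and the member M200016459 farther off, at 0.37. The nearest to M200016459 was M400007914, one of the 9 probes called lower in both, at 0.12. Small distances are easier to reach for members with small differences, so these values do not rank the pairs.

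The direct comparison of V235fs with D272fs was not itself used to choose the members and was tested. The choice is still not independent of it. A rule that asks for a fall in both mutants favours probes whose mutant levels are alike, so the lack of a difference may in part come from the choice. Each mutation lay on a slide of its own, so neither a difference between them nor the lack of one can be told apart from slide. None of the 4 members differed between the mutations in the log2 ratio, where limma called 1 of 26502 probes (0.00377%). The difference V235fs minus D272fs was 0.01 for M300001033 (95% confidence interval −0.23 to 0.24, limma adjusted p = 0.989) and −0.08 for M400003274 (−0.42 to 0.25, limma adjusted p = 0.867). For M200006448 it was −0.21 (−0.51 to 0.10, limma adjusted p = 0.584), with 2 of 4 V235fs arrays below every D272fs array. For M200016459 it was −0.04 (−0.28 to 0.19, limma adjusted p = 0.906). The intervals of M200006448 and M200016459 bound a difference between the mutations and do not show that the levels were equal. M400003274 was near background, with Cy3 minus local background at a mean of 44.3 in V235fs and 50.4 in D272fs, about the offset of 50. Its interval may therefore not bound a difference in transcript level. Agilent's processed log ratios gave M400003274 a difference of −0.51 (SE 0.22, limma adjusted p = 0.321), outside that interval. For M300001033, which was at background, the interval compares background signals and does not bound a difference in transcript level. In Agilent's processed log ratios its difference was −1.11 (SE 0.59, limma adjusted p = 0.43).

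Each channel was also tested alone. In Cy3, where limma called 5.86% of tested probes between the mutations, the differences of the 4 members were between −0.02 and 0.07, and the limma adjusted p-values between 0.791 and 0.994. In Cy5, where 14.4% of tested probes were called, none of the members was called either. The largest Cy5 difference was 0.20 for M200006448 (95% confidence interval 0.02 to 0.38, limma adjusted p = 0.127), which was higher in all 4 V235fs arrays than in any D272fs array. Of the 12 tests over ratio, Cy3 and Cy5, 0 passed by limma's adjusted p and this 1 had an unadjusted p under 0.05. M200016459 was also higher in Cy5 on all 4 V235fs arrays than on any D272fs array, by 0.11 (−0.10 to 0.33, limma adjusted p = 0.476). How many tested probes were separated in this way was not counted, so it is not read as a trait of these members. In Cy5, 7922 of the 26502 tested probes had an unadjusted limma p under 0.05 between the mutations.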

How the data were processed

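Groups and replicate numbers came from sample titles. The deposited scanner files hold Cy3 and Cy5 spot intensities, local background, flags and a log10 ratio (Cy5 over Cy3). Per the file headers, Feature Extraction 11.5.1.1 made them. One file was deposited with 3 significant digits. Those log10 ratios also make up the authors' value table, within 0.005, with column medians from 0 to 0.00346. Signals were corrected by normexp (offset 50) and normalised by loess within arrays with limma 3.58.1 in R 4.3.3. Control spots (1417), other spots (184) and outlier spots (69) were left out. Probes well above background in Cy3 on at least 4 arrays, with 2 values per group, were tested by a linear model over all 12 arrays and called at a Benjamini-Hochberg adjusted p under 0.05. Channel values followed Aquantile normalisation. Nearest profiles were named 1 per member. The fit of V235fs against D272fs was tested on simulated data. The gene lists and the translated match of sequences were not run, as they need gene names or protein sequences, which were not used here. Members and lists were chosen with earlier results of these data known. Samples with the same replicate number were not treated as pairs. Correlations of same-numbered deviations ranged from −0.51 to 0.35, which showed no clear pairing but cannot exclude one. The number of arrays limits the precision.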

Additional observations from a re-analysis of the deposited data

Results flagged for a closer look

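Among 36 groups of 4 values of the members (3 quantities, 3 groups), 2 held an array far from the other 3. Chance gives this in about 1 in 20 such groups, and 2 of 36 is close to that rate. For M300001033 control replicate 2 was low in normalised Cy3, at 8.67 against 8.92 to 8.95 on the other control arrays. For M200016459 control replicate 4 was low in normalised Cy5, at 8.13 against 8.58 to 8.65. Without control replicate 4 all 4 members kept a lower ratio in both mutants. No cause was tested for either.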

How the results depend on the processing

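Values are log2 differences from control, V235fs then D272fs, and the cause of a movement was not tested unless given. Each member's ratio stayed lower in both mutants under every alternative run on the ratio and without any 1 of the 12 arrays. Only Cy5 alone turned a sign, for the 3 members other than M300001033. Agilent's processed log ratios and the authors' value table gave −3.70 and −2.59 for M300001033, −3.52 and −3.01 for M400003274, −1.64 and −1.30 for M200006448 and, in D272fs, −0.82 for M200016459. An offset of 0 gave −3.17 and −3.23, −2.91 and −2.72, and −1.51 and −1.19 for the first 3 members. A background from the negative control spots gave −2.60 for M300001033 in V235fs. Scale normalisation gave −1.95 and −1.90, −1.76 and −1.67 and, for M200006448 in D272fs, −0.76. Median centring gave −2.05 and −2.01 for M300001033 and −1 and −1.08 for M200016459. Cy3 alone gave −0.02 and −0.09 for M200016459. Cy5 alone gave −0.07 and −0.06, 0.09 and 0.02, 0.17 and −0.03, and 0.72 and 0.61 for the 4 members in the order M300001033, M400003274, M200006448 and M200016459.

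Leaving out 1 array gave −2.48 to −2.28 and −2.49 to −2.29 for M300001033, −2.33 to −2.03 and −2.25 to −1.95 for M400003274, −1.29 to −1.08 and −1 to −0.90 for M200006448, and −0.81 to −0.66 and −0.77 to −0.66 for M200016459. Between the mutations the ranges were −0.02 to 0.04, −0.13 to −0.03, −0.33 to −0.12 and −0.12 to 0.03. In that comparison no member was called in 118 refits, single-channel fits included.

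The choice of the members as called in both mutants was less stable. The counts below reuse the comparisons and arrays that chose the members, so they describe the choice and lend support to no member. M300001033 was called in 14 of 17 alternatives and M400003274 in 16 of 17, each in 12 of 12 fits without 1 array. M200006448 was called in 10 of 18 and 3 of 12, and M200016459 in 8 of 18 and 2 of 12 (M200006448 without V235fs replicate 1 or 4 or D272fs replicate 3, M200016459 without V235fs replicate 1 or D272fs replicate 3). The 9 probes called lower in both became 45 with no background subtraction, 46 with negative control spots, 33 with Agilent's ratios or the authors' table, 16 in Cy3 alone, 651 in Cy5 alone, 1285 with array weights, 4 with scale normalisation or position as a block, 3 with median centring or with either slide or scan day as random effect, and 2 with an offset of 0 or only the 2 groups compared. Leaving out 1 array gave 2 (without D272fs replicate 1) to 21 (without D272fs replicate 3).

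Where limma called 1 probe between the mutations, no background subtraction called 29, negative control spots 23, Agilent's ratios 11, the deposited ratios of the authors also 11, position as a block 12, only the 2 groups 4, array weights 1776, Cy3 alone 1552 and Cy5 alone 3823. Median centring and scale normalisation called 0, with 1134 and 2267 probes at an unadjusted p under 0.05. Leaving out 1 array gave 0 (without V235fs replicate 1, with 3353 at an unadjusted p under 0.05) to 371 (without D272fs replicate 3). The replicate block, whose numbers are not known to pair the samples, called 2 probes lower in both (M300001033 and M400003274). Between the mutations it called 0, with 2533 at an unadjusted p under 0.05.

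With Cy3 well above background required on all 12 arrays, M300001033 and M400003274 had no value. A shorter translated match was not run.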
